A study of Mus musculus with 16 samples.

Results

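Npas4 and the 3 Nr4a genes, Nr4a1, Nr4a2 and Nr4a3, encode transcription factors that neurons switch on when they are active. They were taken by symbol from the count tables of an RNA-seq study of mouse primary cortical neurons. All 4 symbols were found in both tables, out of 26371 symbols that the tables share. All 4 passed the filter on low counts in every comparison, and the lowest count of any of them in any library was 31.

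NPAS4 is a neuron-enriched factor of the bHLH-PAS family that calcium entry induces within minutes, and it binds DNA as a dimer with ARNT or ARNT2. In cortical neurons it is known for adjusting inhibitory synapses to the level of activity, in part through the neurotrophin gene Bdnf. The NR4A proteins are orphan nuclear receptors whose ligand pocket is filled by side chains, so their activity follows their amount. They bind DNA alone, with each other or, for NR4A1 and NR4A2, with a retinoid X receptor. Their genes are classical targets of CREB and its CRTC coactivators, and they take part in the storage of long-term memory. NR4A2 (Nurr1) is also needed to make and maintain midbrain dopamine neurons and marks a class of deep-layer cortical neurons.

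The study knocked down Nup153, a nucleoporin of the nuclear basket, and its title links Nup153 to HDAC1 and to the responsiveness of neurons. Cortices of C57/BL6 embryos (embryonic day 17.5 to 19.5) were pooled by litter, each litter giving 1 biological replicate. An adeno-associated virus (AAV) with a short hairpin RNA was present from day 8 to day 13 in vitro in every group, controls included. The basal libraries used here were 4 with the control hairpin (shControl), 2 with shNup153-1 and 2 with shNup153-2. Basal replicate 3 of each Nup153 hairpin was left out, because 2 basal columns share a name and could not be assigned to a sample. Another 3 libraries with shControl and 3 with shNup153-2 came from silenced cultures, which had received 24 hours of tetrodotoxin (1 to 2 µM), a sodium channel blocker that stops action potentials, and 6 hours of D-AP5 (100 µM), an NMDA receptor blocker. Hairpin groups follow the sample titles, because the descriptions of the knockdown samples name the control virus. The labels state that samples were sequenced only where the knockdown sufficed, so levels of Nup153 were part of the choice of samples.

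Total counts per library ranged from 26863535 to 56299817. Levels below are counts-per-million values (CPM) on a single scale for all 14 libraries, and changes are log2 fold changes from edgeR with p-values adjusted by Benjamini-Hochberg (BH) over all genes tested. A change counts as called at a false discovery rate (FDR) of 0.05. Nup153 itself stood at 94.5, 52.9, 77.8 and 56.8 CPM in basal shControl. Cultures with shNup153-1 had 17.1 and 28 CPM, and those with shNup153-2 had 13.5 and 11.6. In silenced cultures it was 64.2, 52.1 and 61.8 CPM with shControl and 10.6, 13.4 and 9.38 with shNup153-2. In both states every knockdown library thus lay below every shControl library. In the basal table the counts of shNup153-1 were displaced against the gene symbols from line 16420 on, and the 4 genes lie above that line. Pan-neuronal markers summed to 4380 to 8160 CPM over all groups, while microglial markers stayed at or below 1.57 CPM, endothelial markers at or below 16.5 and fibroblast and mural markers at or below 17.5. The sums cover only 3 of 8 listed microglial and 4 of 6 listed endothelial markers. Astrocyte markers were not low, at 210 to 2530 CPM over all groups, and oligodendrocyte lineage markers summed to 114 to 787. Both of these maxima were in basal shNup153-1.

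The 4 genes lie on 4 chromosomes (mm10, GENCODE M21). Npas4 spans chr19:4984355-4990316 on the reverse strand, Nr4a1 chr15:101254269-101274795 on the forward strand, Nr4a2 chr2:57106830-57124003 on the reverse strand and Nr4a3 chr4:48045153-48086447 on the forward strand. No exon base of the 4 genes is shared with another gene on either strand. CREB binds the cAMP response element (CRE) and also its 5-base core TGACG, and this core recurs upstream of all 4 starts. The sequences below are shown because they hold these cores, in capitals on either strand, CGTCA being the core read on the other strand. They were taken from RefSeq (GRCm38.p6), which had an entry for all 4 genes, and run 5′ to 3′ on the strand of the gene. For Npas4 (chr19:4990129-4990158, reverse strand) 30 bases are shown, because in GENCODE the whole 250-base window lies in an exon. For Nr4a1 (chr15:101266596-101266845, forward strand) and Nr4a2 (chr2:57124004-57124253, reverse strand) the 250 bases before the start are shown, and that of Nr4a1 lies inside the span of the gene but outside its exons. For Nr4a3 (chr4:48045055-48045152, forward strand) 98 bases are shown, up to the first base that GENCODE places in an exon.
Npas4: ccgttcgaCGTCAcgggaTGACGtcggaag
Nr4a1: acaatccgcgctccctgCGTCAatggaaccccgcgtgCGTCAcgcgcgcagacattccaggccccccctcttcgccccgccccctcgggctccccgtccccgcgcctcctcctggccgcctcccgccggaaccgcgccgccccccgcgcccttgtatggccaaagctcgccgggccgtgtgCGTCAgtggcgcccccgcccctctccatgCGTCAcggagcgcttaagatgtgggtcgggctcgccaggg
Nr4a2: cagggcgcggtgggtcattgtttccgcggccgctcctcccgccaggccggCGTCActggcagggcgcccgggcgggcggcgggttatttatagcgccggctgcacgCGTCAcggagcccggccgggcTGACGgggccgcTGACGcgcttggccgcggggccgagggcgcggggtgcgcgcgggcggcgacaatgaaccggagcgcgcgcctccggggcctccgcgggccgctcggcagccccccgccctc
Nr4a3: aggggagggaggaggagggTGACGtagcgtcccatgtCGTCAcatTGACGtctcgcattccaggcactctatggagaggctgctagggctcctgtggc

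Over the full 250 bases before each start, the core TGACG was found 2 times for Npas4 and 4 times each for Nr4a1, Nr4a2 and Nr4a3, counting both strands. Of 32851 mouse promoter windows of the same length, 17.8% held at least 1 core, 3.9% at least 2 and 0.137% (45 windows) at least 4. In Npas4 the cores lie on opposite strands, beginning at bases -179 and -169 from the start, in Nr4a1 all 4 lie on the reverse strand, and in Nr4a2 and Nr4a3 both strands carry them. The full palindrome TGACGTCA, which contains the core, was in none of the 4 windows and in 1.55% of all windows. The windows of the 4 genes also held no match to the NR4A binding element AAAGGTCA (1.34% of all windows), to the bHLH-PAS core TCGTG (13.3%) or to the CArG box of SRF (1.47%), searched on both strands. A TATAAA match was found in Nr4a2 alone, against 12.4% of all windows, also on either strand. It lies on the strand opposite to the gene and reads tttata in the sequence above. All 4 windows were rich in G and C, at 68.8% for Npas4, 74.4% for Nr4a1, 80.0% for Nr4a2 and 63.6% for Nr4a3, against a median of 52.4% over all windows. The core itself holds a CG, and the shares over all windows were not matched for G and C, so they do not show that the cores exceed base composition. A match is a match of letters only, and no binding was measured in the files used here.

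**Figure D1:**
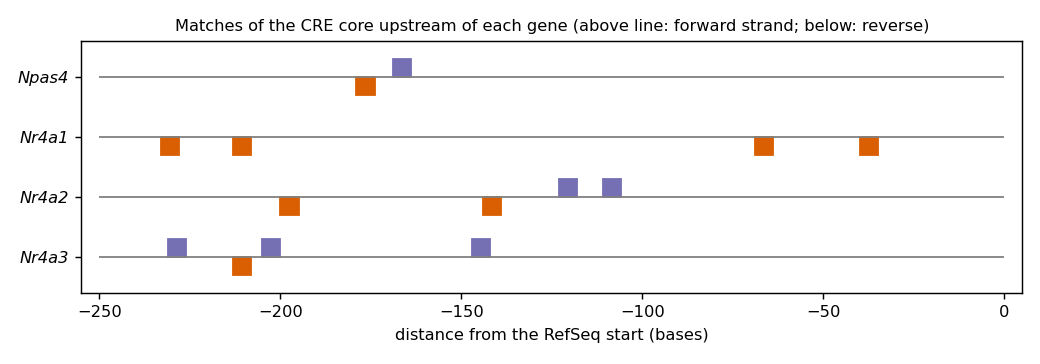
Positions of the CRE core in the 250 bases before the RefSeq start of each gene, with distance from the start in bases on the horizontal axis and 1 line per gene. Squares above a line are matches on the strand of the gene and squares below it matches on the other strand; Npas4 has 2 and each Nr4a gene has 4.

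At basal state Npas4, Nr4a1 and Nr4a3 rose with both hairpins, and Nr4a2 rose with shNup153-2. Mean levels with shNup153-1 were 13.3 times those of shControl for Npas4, 6.22 times for Nr4a1, 2.95 times for Nr4a3 and 1.12 times for Nr4a2. With shNup153-2 they were 7.5 times for Npas4, 9.98 times for Nr4a1, 7.86 times for Nr4a3 and 1.94 times for Nr4a2. Both comparisons share the same 4 shControl libraries, so they are not independent of each other. With shNup153-1, 3 of the 4 genes were called higher and 0 lower, where 6.52% of 14529 genes tested were called higher and 7.05% lower. With shNup153-2, 4 of the 4 were called higher, where 5.91% of 19682 genes tested were called higher and 3.64% lower.

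Npas4 stood at 2.75, 2.44, 3.36 and 2.05 CPM in the shControl libraries (2.65 ± 0.552, SD, n = 4). With shNup153-1 it stood at 53.7 and 16.9 CPM (35.3 ± 26, SD, n = 2) and with shNup153-2 at 18.1 and 21.6 CPM (19.9 ± 2.47, SD, n = 2). The shControl libraries were close together and far below all 4 knockdown libraries, and the libraries of shNup153-1 differed from each other by more CPM than those of any other group. The log2 fold change was 3.70 (SE 0.40, edgeR BH-adjusted p = 0.00201) with shNup153-1 and 2.87 (SE 0.24, edgeR BH-adjusted p = 0.00256) with shNup153-2. Ordered by mean, shNup153-1 came before shNup153-2 and these groups overlapped, and both lay clear of shControl.

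Nr4a1 (Nur77), which is induced by activity and by growth factors, was measured at 5.75, 3.23, 9.56 and 3.57 CPM with shControl (5.53 ± 2.91, SD, n = 4). It reached 47.4 and 21.4 CPM with shNup153-1 (34.4 ± 18.4, SD, n = 2) and 42.7 and 67.5 CPM with shNup153-2 (55.1 ± 17.5, SD, n = 2). Here the shControl libraries were themselves spread, replicate 3 being the highest, but the lowest knockdown library was still above it. The log2 fold changes were 2.60 (SE 0.46, edgeR BH-adjusted p = 0.00969) and 3.29 (SE 0.41, edgeR BH-adjusted p = 0.00604). The hairpin groups overlapped each other.

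Nr4a3 (Nor1) was at 18.3, 6.81, 11.2 and 12.4 CPM with shControl (12.2 ± 4.75, SD, n = 4), at 41.4 and 30.5 CPM with shNup153-1 (36 ± 7.72, SD, n = 2) and at 100 and 91.3 CPM with shNup153-2 (95.7 ± 6.25, SD, n = 2). No group overlapped another, and shNup153-2 lay above shNup153-1. The gene rose by 1.53 (SE 0.33, edgeR BH-adjusted p = 0.0188) with shNup153-1 and by 2.94 (SE 0.32, edgeR BH-adjusted p = 0.00475) with shNup153-2, both on the log2 scale.

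Nr4a2 had the narrowest range of the 4 genes over the basal libraries, 10.4 to 22.8 CPM. It stood at 10.4, 12, 11.4 and 11.5 CPM with shControl (11.3 ± 0.653, SD, n = 4), at 14.6 and 10.9 CPM with shNup153-1 (12.7 ± 2.64, SD, n = 2) and at 21.3 and 22.8 CPM with shNup153-2 (22 ± 1.05, SD, n = 2). One shNup153-1 library lay above all shControl libraries and the other among them, whereas both shNup153-2 libraries lay above all others. The log2 fold change was 0.14 (SE 0.19, edgeR BH-adjusted p = 0.667) with shNup153-1, not past the threshold, and 0.93 (SE 0.18, edgeR BH-adjusted p = 0.0197) with shNup153-2.

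**Figure D2:**
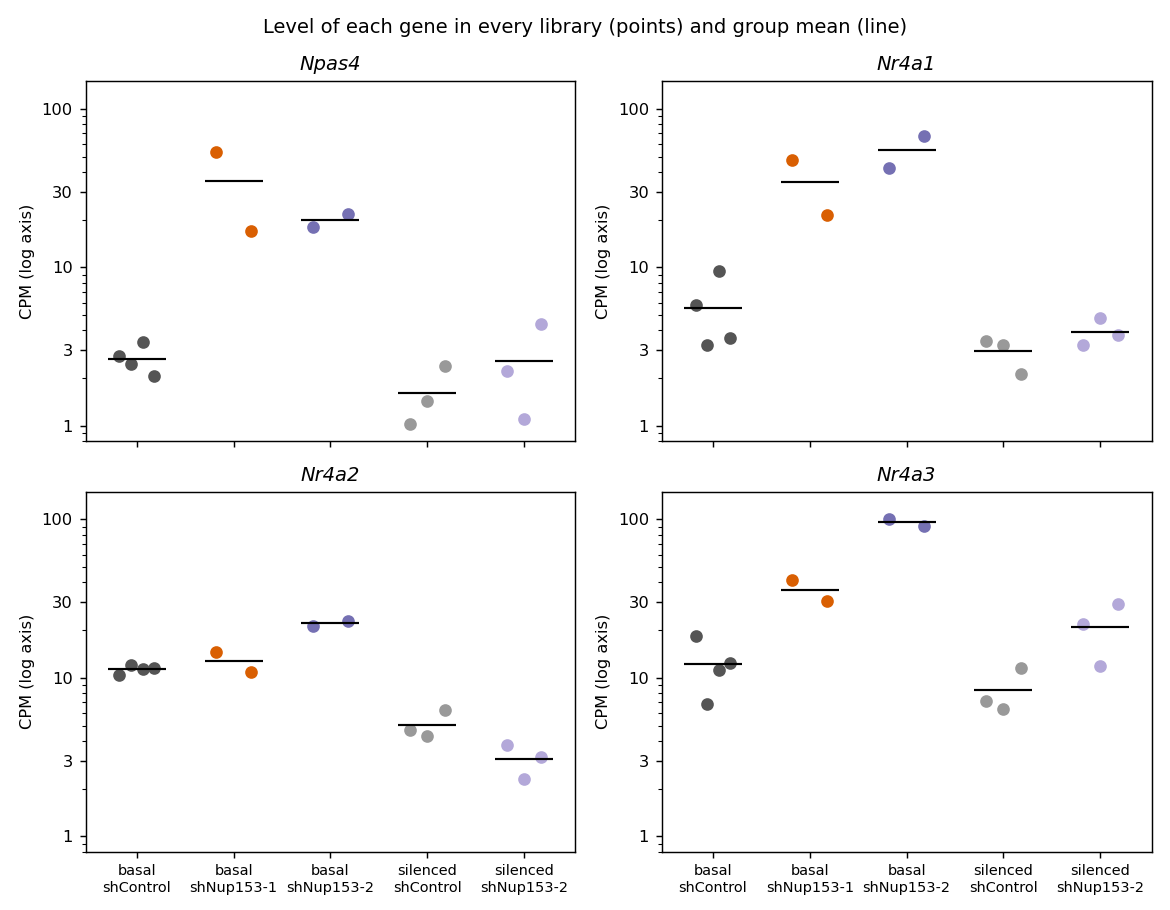
Level of each gene in CPM (log axis) in the 5 groups, with 1 point per library and a line at the group mean. At basal state all knockdown libraries of Npas4, Nr4a1 and Nr4a3 lie above all shControl libraries, while the silenced groups of Npas4 and Nr4a1 lie close to or below the basal controls. The share of all genes without overlap was not counted.

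With 2 libraries used per hairpin, these calls depended on single libraries. Without shNup153-1 replicate 1, the library with the higher level of all 4 genes, Npas4 remained the only one called of the 4, with edgeR BH-adjusted p of 0.0944 for Nr4a1 and 0.137 for Nr4a3. Without shNup153-2 replicate 2 none of the 4 was called (edgeR BH-adjusted p = 0.0555 for Npas4, 0.0864 for Nr4a1, 0.205 for Nr4a2 and 0.0695 for Nr4a3), and without replicate 1 only Npas4 was (0.056 for Nr4a1, 0.187 for Nr4a2 and 0.062 for Nr4a3). The size of the changes with shNup153-1 rested on single libraries too: that of Npas4 went from 3.70 to 2.65 without replicate 1 and 4.30 without replicate 2, and that of Nr4a1 from 2.60 to 1.93 and 3.06. Over all alternatives Nr4a3 lay between 1.30 and 1.83 and Nr4a2 between -0.08 and 0.33 with this hairpin. The log2 fold changes with shNup153-2 lay between 2.75 and 3.00 for Npas4, 2.93 and 3.68 for Nr4a1, 0.89 and 0.97 for Nr4a2 and 2.75 and 3.21 for Nr4a3. Calls over all genes fell as well, with shNup153-1 from 1971 to 356 without replicate 1 and 998 without replicate 2, and with shNup153-2 from 1880 to 25 without replicate 1, 15 without replicate 2 and 650 without shControl replicate 4. Nr4a2 was also not called without shControl replicate 4 (edgeR BH-adjusted p = 0.0659). The call on Nup153 itself was lost in the same way, with edgeR BH-adjusted p of 0.103 without shNup153-1 replicate 1 and 0.0767 and 0.0928 without either shNup153-2 library.

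Set against each other, the hairpins gave no difference past the threshold in any of the 4 genes. For Nr4a3 the log2 level with shNup153-2 minus that with shNup153-1 was 1.41 (SE 0.40, edgeR BH-adjusted p = 0.0764) and for Nr4a2 it was 0.78 (SE 0.22, edgeR BH-adjusted p = 0.0739). It was 0.68 for Nr4a1 (SE 0.55, edgeR BH-adjusted p = 0.456) and -0.83 for Npas4 (SE 0.47, edgeR BH-adjusted p = 0.287). Thus edgeR called 0 of the 4, of which 2 had an unadjusted p below 0.05, where 4.48% of 14529 genes were called in either direction. DESeq2 called 2, Nr4a2 (adjusted p = 0.0138) and Nr4a3 (adjusted p = 0.0128). Over all 14529 genes DESeq2 called 1171 higher and 943 lower with shNup153-2, more than edgeR did. Without shNup153-1 replicate 1 the difference in Npas4 turned to 0.22 (edgeR BH-adjusted p = 0.85). The shNup153-1 cultures also differed in their markers of other cells: 8 of 11 oligodendrocyte lineage markers rose against shControl, and the list summed to 786 and 787 CPM against 114 to 285 in shControl and 254 to 382 with shNup153-2. Excitatory neuron markers summed to 511 to 774 CPM with shNup153-1, 1330 to 1340 with shNup153-2 and 823 to 1140 in shControl, and GABAergic markers to 1530 to 2280, 1320 to 1380 and 798 to 1520. The GABAergic members went different ways, mean Gad1 from 464 CPM to 990 and 613 with the hairpins, but Sst from 204 to 141 and 57.4 and Calb2 from 82.5 to 32 and 17.2. Of 9, 1 was called higher with shNup153-1, where 6.52% of all genes were, and 0 with shNup153-2. The excitatory sum hides members that went opposite ways with shNup153-2, with 1 of 7 called higher and 1 lower against shControl. Mean Slc17a7 rose from 414 to 777 CPM, and mean Slc17a6 fell from 86.4 to 21.7 CPM. Over all genes 5.91% were called higher and 3.64% lower in that comparison. Endothelial markers summed to less than in shControl (4.88 to 16.5 CPM) with both hairpins, at 1.36 to 1.87 with shNup153-1 and 2.74 to 3.27 with shNup153-2. Kdr and Flt1 carried this sum, with means of 2.89 and 6.89 CPM in shControl and 0.0307 and 0.302 with shNup153-1. The other covered markers had higher means with shNup153-1, Pecam1 1.13 against 0.737 CPM and Tek 0.156 against 0.0544. With shNup153-2 the means of all 4 were below shControl. Whether these cells carry part of the difference between the hairpins was not tested, and in bulk RNA a change in the number of cells of a type and a change of RNA per cell cannot be told apart.

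In silenced cultures no library of the 4 genes exceeded 29.3 CPM, a level reached by Nr4a3 with shNup153-2, of which 2 of 3 libraries lay above the highest basal shControl library (18.3 CPM). Mean levels with shNup153-2 were 1.59 times those of shControl for Npas4, 1.33 times for Nr4a1, 2.51 times for Nr4a3 and 0.608 times for Nr4a2. In the unpaired fit 0 of the 4 genes were called, 2 of them with an unadjusted p below 0.05, where 3.45% of 18965 genes tested were called in either direction. That share rested on single libraries, as the 654 calls over all genes became 4 without shNup153-2 replicate 1 and 12 without shControl replicate 1. Residuals of libraries with the same replicate number correlated at 0.29, 0.57 and 0.62 in these cultures. A fit that blocks on the replicate number is therefore given as well. The residuals were taken about means of 3 libraries, which forces correlations of both signs, so they cannot settle whether the numbers pair the libraries. With the block, 1 of the 4 was called higher and 1 lower, where 11.7% of genes were called higher and 10.3% lower.

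Nr4a3 stood at 7.13, 6.37 and 11.6 CPM with silenced shControl (8.36 ± 2.8, SD, n = 3) and at 21.8, 11.9 and 29.3 CPM with silenced shNup153-2 (21 ± 8.7, SD, n = 3). Every knockdown library was above every control library, the closest being knockdown replicate 2 and control replicate 3. Within replicate numbers the ratios were 3.06, 1.87 and 2.53. The log2 fold change was 1.35 (SE 0.37, edgeR BH-adjusted p = 0.102) unpaired and 1.32 (SE 0.14, edgeR BH-adjusted p = 0.00149) with the block. DESeq2 without the block also called the gene (adjusted p = 0.00435).

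Nr4a2 went the other way, from 4.69, 4.27 and 6.25 CPM with shControl (5.07 ± 1.04, SD, n = 3) to 3.75, 2.3 and 3.19 CPM with shNup153-2 (3.08 ± 0.73, SD, n = 3). The groups did not overlap, and the ratios within replicate numbers were 0.8, 0.539 and 0.51. The log2 fold change was -0.69 (SE 0.26, edgeR BH-adjusted p = 0.192) unpaired and -0.70 (SE 0.19, edgeR BH-adjusted p = 0.0348) with the block.

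Npas4 was at 1.03, 1.43 and 2.40 CPM with silenced shControl (1.62 ± 0.703, SD, n = 3) and at 2.22, 1.1 and 4.42 CPM with silenced shNup153-2 (2.58 ± 1.69, SD, n = 3). The groups overlapped, and the ratios within replicate numbers were 2.16, 0.769 and 1.84, on both sides of equality. The log2 fold change of 0.69 (SE 0.54, edgeR BH-adjusted p = 0.541) was not past the threshold. Nr4a1 was at 3.45, 3.26 and 2.13 CPM with shControl (2.95 ± 0.715, SD, n = 3) and 3.24, 4.78 and 3.74 CPM with shNup153-2 (3.92 ± 0.786, SD, n = 3), again with overlap. Its log2 fold change was 0.43 (SE 0.26, edgeR BH-adjusted p = 0.424). Neither gene was called under any alternative, the block included.

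The comparison of silenced with basal cultures sets levels under blocked activity against those of untreated cultures. The state and the count table are the same split of the libraries, so silencing cannot be told apart from anything else that differed between the tables. With shControl, Nr4a2 fell by 1.21 on the log2 scale (SE 0.20, edgeR BH-adjusted p = 0.00359), its mean in silenced cultures being 0.447 times the basal one, and no silenced library overlapped a basal one. Npas4 (-0.76, SE 0.41, edgeR BH-adjusted p = 0.258), Nr4a1 (-0.96, SE 0.36, edgeR BH-adjusted p = 0.104) and Nr4a3 (-0.60, SE 0.35, edgeR BH-adjusted p = 0.295) did not pass the threshold, and their basal and silenced shControl libraries overlapped. So 1 of the 4 was called lower, where 6.27% of 20926 genes tested were called lower and 6.09% higher. Nr4a1 was called as well by DESeq2 (adjusted p = 0.0492) and in edgeR without basal shControl replicate 2 (BH-adjusted p = 0.0442).

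With shNup153-2, all 4 genes were lower in silenced than in basal cultures. No silenced library overlapped a basal one for any of them. The share of all genes without such overlap was not counted, so this describes the libraries only. Nr4a1 fell by 3.85 on the log2 scale (SE 0.43, edgeR BH-adjusted p = 4e-04), Npas4 by 2.97 (SE 0.47, edgeR BH-adjusted p = 0.00277), Nr4a2 by 2.86 (SE 0.23, edgeR BH-adjusted p = 0.000181) and Nr4a3 by 2.22 (SE 0.41, edgeR BH-adjusted p = 0.00502). These 4 calls of 4 stand against 12.3% of 20926 genes called lower and 9.39% called higher. Calls over all genes depended on the 2 basal shNup153-2 libraries, falling from 2581 lower and 1964 higher to 703 and 188 without replicate 1 and 661 and 180 without replicate 2. The calls on the 4 genes were made under every alternative run for this comparison, 12 for each gene. Set beside basal shControl, silenced shNup153-2 libraries lay within the range for Nr4a1, on both sides of it for Npas4, inside and above it for Nr4a3 and below it for Nr4a2. Beside these falls, GABAergic markers summed to 546 to 562 CPM with silenced shControl and 556 to 688 with silenced shNup153-2, against 798 to 1520 and 1320 to 1380 CPM in the basal groups of the same hairpins. Astrocyte markers summed to 210 to 991 and 233 to 1080 CPM against 349 to 2180 and 2020 to 2340. Oligodendrocyte lineage markers summed to 245 to 432 and 147 to 589 CPM against 114 to 285 and 254 to 382, with overlap for each hairpin. Of 12, 3 were called higher in silenced cultures with shControl (median log2 fold change 1.01) and 5 higher and 1 lower with shNup153-2 (1.93). The members went different ways with shNup153-2. Sox10 and Enpp6 rose from basal means of 0.0515 and 0.0249 CPM, whereas mean Mbp went from 32.1 to 14.8 CPM. The part of these cells in the falls was not tested.

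**Figure D3:**
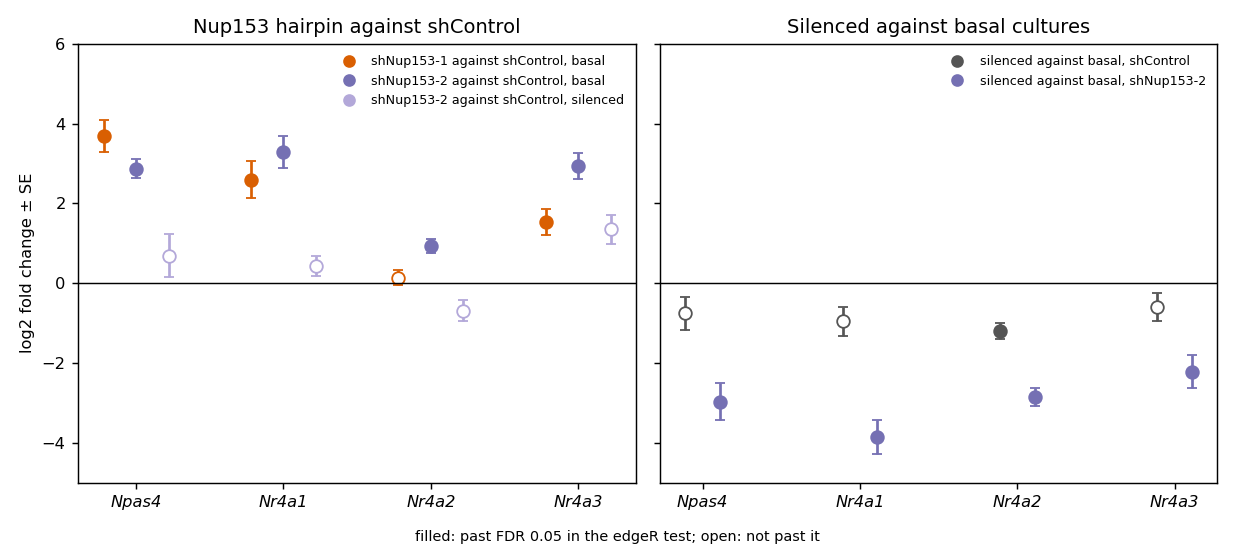
Log2 fold change of each gene with its standard error, on the left for Nup153 hairpins against shControl and on the right for silenced against basal cultures. Filled points passed FDR 0.05 in the edgeR test without a block; the 4 filled points of shNup153-2 on the right lie between -2.22 and -3.85.

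The difference between the silenced and the basal effect of shNup153-2 was tested as an interaction. It was -2.89 for Nr4a1 (SE 0.54, edgeR unadjusted p = 0.000169, BH-adjusted p = 0.109), -2.21 for Npas4 (SE 0.61, edgeR unadjusted p = 0.00358, BH-adjusted p = 0.242), -1.65 for Nr4a2 (SE 0.30, edgeR unadjusted p = 0.000127, BH-adjusted p = 0.101) and -1.62 for Nr4a3 (SE 0.53, edgeR unadjusted p = 0.0101, BH-adjusted p = 0.322). All 4 estimates were negative, so each effect was smaller or reversed in silenced cultures, but edgeR called 0 of them and 0% of 20926 genes in all, of which 2393 had an unadjusted p below 0.05. DESeq2 called 285 genes (1.36%), among them Npas4 (adjusted p = 0.0357), Nr4a1 (adjusted p = 0.000272) and Nr4a2 (adjusted p = 0.000114). Over all alternatives the adjusted p ranged from 0.0357 to 0.657 for Npas4, 0.000272 to 0.551 for Nr4a1, 0.000114 to 0.51 for Nr4a2 and 0.12 to 0.742 for Nr4a3.

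The make-up of the Nr4a family was compared within each library as the share of each gene in their summed CPM per kilobase of exon, which does not depend on library scaling. In basal shControl cultures Nr4a2 held 45.0% ± 10.8 (SD, n = 4), Nr4a3 31.3% ± 8.97 and Nr4a1 23.7% ± 9.02. With shNup153-1 the share of Nr4a2 was 17.2% ± 3.09 (SD, n = 2), and with shNup153-2 it was 14.7% ± 0.971 (SD, n = 2). The shControl libraries lay between 35.3% and 59.0% and the knockdown libraries between 14.0% and 19.3%, without overlap. The share of Nr4a1 was 50.1% ± 8.69 with shNup153-1 and 41.8% ± 8.7 with shNup153-2, and the latter overlapped shControl. Meanwhile the summed level of the family went from 6.4 ± 1.14 CPM per kilobase (SD, n = 4) with shControl to 18.9 ± 7.17 with shNup153-1 (SD, n = 2) and 37.1 ± 4.23 with shNup153-2 (SD, n = 2).

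Silenced cultures had a low summed level, 3.49 ± 0.537 CPM per kilobase with shControl (SD, n = 3) and 5.38 ± 1.42 with shNup153-2 (SD, n = 3), but the make-up again differed by hairpin. With silenced shControl Nr4a2 held 35.7% ± 1.78 and Nr4a3 39.4% ± 6.99, and with silenced shNup153-2 Nr4a2 held 14.3% ± 2.59 and Nr4a3 63.2% ± 11.2 (SD, n = 3 each). Neither share overlapped between these groups, with Nr4a2 at 34.5% to 37.7% against 11.7% to 16.8%. The share of Nr4a2 with shNup153-2 was thus low in both states, but the level of the gene moved in opposite directions. In basal cultures, where the family's summed level was high, Nr4a2 was at 1.94 times its shControl mean, Nr4a1 at 9.98 times and Nr4a3 at 7.86 times. In silenced ones, where the summed level was low, Nr4a2 was at 0.608 times its shControl mean. On the same scale Npas4 stood at 0.641 CPM per kilobase with basal shControl, 8.53 with shNup153-1, 4.8 with shNup153-2, 0.392 with silenced shControl and 0.624 with silenced shNup153-2. These shares are a description of the libraries and were not tested.

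**Figure D4:**
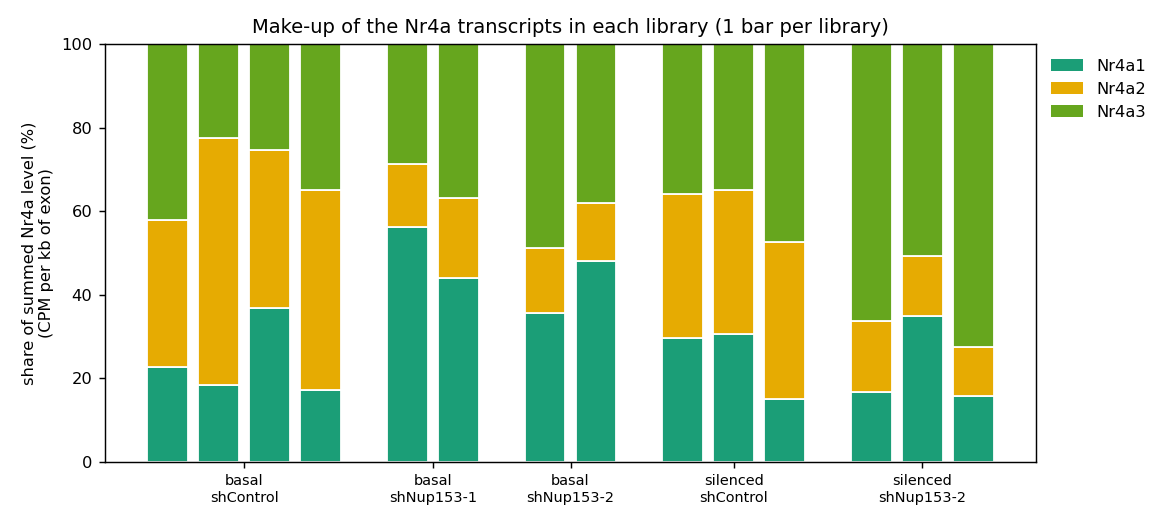
Share of Nr4a1, Nr4a2 and Nr4a3 in their summed CPM per kilobase of exon, in percent, with 1 stacked bar per library grouped by state and hairpin. The middle segment, Nr4a2, spans 35.3% to 59.0% in basal shControl and 14.0% to 19.3% in the basal knockdown libraries, and 34.5% to 37.7% against 11.7% to 16.8% in silenced cultures.

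Dimer partners and relatives of the 4 proteins were counted next, and the median log2 fold change of all genes tested lay between -0.03 and 0.01 in every comparison below. The counts of each list stand against the shares of all genes given above, 6.52% higher and 7.05% lower with shNup153-1, 5.91% and 3.64% with shNup153-2 and 3.45% in either direction in silenced cultures. Genes named are those with the smallest p in a comparison, so a gene given with 1 hairpin may have been called with the other as well. Of 5 partner genes (Arnt, Arnt2, Rxra, Rxrb and Rxrg), none was called with shNup153-1 and 1 rose with shNup153-2, Rxrg (1.37 on the log2 scale, SE 0.32, edgeR BH-adjusted p = 0.038), from 4.71 ± 1.56 CPM (SD, n = 4) to 12.4 ± 1.9 (SD, n = 2). Arnt2 stood at 209 ± 13.2 CPM with basal shControl (SD, n = 4) and was lower in silenced cultures with either hairpin (edgeR, with shControl -0.57, SE 0.12, BH-adjusted p = 0.0121, with shNup153-2 -0.48, SE 0.14, BH-adjusted p = 0.0352). The medians of this list were 0.43 and 0.30 with the basal hairpins. Of 16 tested bHLH-PAS genes other than Npas4, Epas1, which encodes the hypoxia-inducible factor HIF2A, rose with shNup153-1 (2.42, SE 0.59, edgeR BH-adjusted p = 0.0303) and shNup153-2 (2.35, SE 0.54, edgeR BH-adjusted p = 0.0354). The coactivator gene Ncoa1 fell with shNup153-1 (-0.98, SE 0.25, edgeR BH-adjusted p = 0.0347). No other gene of this list was called with either hairpin at basal state, and the list medians were -0.15 and 0.55. With 1 called higher and 1 lower of 16, the list was near the shares of all genes with shNup153-1.

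Of 35 tested nuclear receptor genes outside the Nr4a family, 5 rose and 1 fell with shNup153-1 and 8 rose with shNup153-2, with medians of 0.02 and 0.30, where 6.52% of all genes were called higher and 7.05% lower with shNup153-1 and 5.91% and 3.64% with shNup153-2. Ppard, the fatty-acid sensing receptor, rose from 7.34 ± 2.84 CPM (SD, n = 4) to 28.2 ± 5.33 and 34.1 ± 6.98 (SD, n = 2 each), by 1.91 (SE 0.33, edgeR BH-adjusted p = 0.00902) and 2.19 (SE 0.33, edgeR BH-adjusted p = 0.00889). Nr1d1, the clock repressor REV-ERBA, rose by 1.09 with shNup153-1 (SE 0.17, edgeR BH-adjusted p = 0.00643), and Pparg (2.64, SE 0.33, edgeR BH-adjusted p = 0.00583) and Esrrg (1.81, SE 0.30, edgeR BH-adjusted p = 0.0126) rose with shNup153-2. Nr3c2, the mineralocorticoid receptor gene, fell with shNup153-1 (-1.12, SE 0.21, edgeR BH-adjusted p = 0.0117). In silenced cultures 2 of 33 rose with shNup153-2, Esr1 (1.63, SE 0.25, edgeR BH-adjusted p = 0.0268) and Ppard (0.92, SE 0.16, edgeR BH-adjusted p = 0.0336). Partner genes of the RXR class are counted in this list too.

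Upstream, 30 genes for calcium entry, kinases, CREB and its coactivators, SRF, MEF2 factors and class II deacetylases were tested. With shNup153-1, 3 rose and 3 fell (median 0.02), and with shNup153-2, 7 rose and 1 fell (median 0.38). The counts with shNup153-1 are near the shares of all genes, 6.52% higher and 7.05% lower, so they are no result about the list, and the genes below are given as single genes. Crtc1, a CREB coactivator that moves from synapse to nucleus, rose with shNup153-1 by 1.18 (SE 0.18, edgeR BH-adjusted p = 0.00541). Grin1, the obligatory NMDA receptor subunit, rose with both hairpins, by 1.18 (SE 0.16, edgeR BH-adjusted p = 0.00438) and by 1.12 (SE 0.17, edgeR BH-adjusted p = 0.00862). Mef2a fell with shNup153-1 by 1.44 (SE 0.18, edgeR BH-adjusted p = 0.0033), while Mef2d rose with shNup153-2 by 1.36 (SE 0.20, edgeR BH-adjusted p = 0.00834). Rps6ka2, a ribosomal S6 kinase gene, rose by 2.00 in basal cultures with shNup153-2 (SE 0.23, edgeR BH-adjusted p = 0.005) and by 1.44 in silenced ones (SE 0.10, edgeR BH-adjusted p = 0.00529), where it was the only one of the 30 called. In silenced against basal cultures, a split that is also that of the count tables, the levels were higher for Crtc1 (1.22, SE 0.15, edgeR BH-adjusted p = 0.000861) and Grin1 (0.90, SE 0.11, edgeR BH-adjusted p = 0.000887) in shControl cultures, where 5 of the 30 rose and 1 fell. Of all 20926 genes tested in that comparison, 6.09% were called higher and 6.27% lower.

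Downstream, 11 genes reported as NPAS4 targets in neurons were tested. With shNup153-1, 5 rose and 1 fell (median 0.51), and with shNup153-2, 6 rose and 1 fell (median 1.71). Bdnf rose from 5.85 ± 2.58 CPM (SD, n = 4) to 23.6 ± 7.24 and 49.5 ± 26.8 (SD, n = 2 each), by 1.98 (SE 0.42, edgeR BH-adjusted p = 0.0183) and 3.05 (SE 0.41, edgeR BH-adjusted p = 0.00644). Pcsk1, a prohormone convertase gene, rose from 7.98 ± 2.44 CPM (SD, n = 4) to 33.3 ± 3.71 and 47.1 ± 10.2 (SD, n = 2 each), and Scg2, a secretogranin gene, rose with shNup153-1 by 2.09 (SE 0.35, edgeR BH-adjusted p = 0.00802). Plk2, a kinase gene that lowers excitatory synapse strength, went the opposite way, from 642 ± 102 CPM (SD, n = 4) to 209 ± 12.8 and 236 ± 10.3 (SD, n = 2 each), a fall with both hairpins (edgeR BH-adjusted p = 0.00354 and 0.012). In silenced cultures none of the 11 was called with shNup153-2 (median 0.01). With shNup153-2, 8 of the 11 were lower and 1 higher in silenced than in basal cultures (median -1.79). Of all 20926 genes tested, 12.3% were called lower and 9.39% higher there. With shControl 1 of the 11 was lower, Pcsk1 (-1.31, SE 0.30, edgeR BH-adjusted p = 0.0155), a count near the 6.27% of all genes called lower.

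Of 8 genes reported as NR4A targets, mostly in dopamine neurons, 2 rose and 1 fell with shNup153-1 and 2 rose with shNup153-2. One of the risers with each hairpin was Bdnf, which is in the NPAS4 list as well. Slc18a2, the vesicular monoamine transporter gene, rose with shNup153-2 from 0.76 ± 0.188 CPM (SD, n = 4) to 4.27 ± 1.18 (SD, n = 2; 2.45, SE 0.34, edgeR BH-adjusted p = 0.00697). Slc6a3, the dopamine transporter gene, fell with shNup153-1 (-2.22, SE 0.51, edgeR BH-adjusted p = 0.0259), at 1.02 ± 0.383 CPM with shControl (SD, n = 4). Th, the enzyme gene that defines dopamine neurons, was at most 1.68 CPM in every library. The list medians were 0.83 and 0.12.

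Of 22 other activity-induced transcription factor genes tested, 8 rose with shNup153-1 (median 0.78) and 7 with shNup153-2 (median 0.66), and none fell. Egr4 rose by 2.06 (SE 0.32, edgeR BH-adjusted p = 0.0061) and 1.96 (SE 0.29, edgeR BH-adjusted p = 0.00834), from 4.69 ± 0.104 CPM (SD, n = 4) to 20 ± 8.57 and 18.6 ± 9.23 (SD, n = 2 each). Ier2 rose with shNup153-1 by 2.47 (SE 0.42, edgeR BH-adjusted p = 0.00818), and Egr1 rose with both hairpins, by 1.67 (SE 0.45, edgeR BH-adjusted p = 0.0417) and 2.12 (SE 0.43, edgeR BH-adjusted p = 0.0233). Between the hairpins 1 of the 22 was called, Klf2, which was lower with shNup153-2 (-2.33, SE 0.37, edgeR BH-adjusted p = 0.0157). That count is near the 4.48% of 14529 genes called in either direction, so it is no result about the list. In silenced cultures none of 21 was called with shNup153-2 (median -0.09). Silenced cultures had 6 of 22 genes lower with shControl and 16 of 22 lower with shNup153-2 (medians -0.47 and -1.34). Of all 20926 genes tested, 6.27% were called lower with shControl and 12.3% with shNup153-2.

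Finally, genes whose log2 CPM followed each of the 4 over the 14 libraries were listed, among 12334 genes with a mean of at least 1 CPM. The points share libraries, groups and scaling, so the correlations are a description of these libraries. Nr4a1 was most like Egr1 (Pearson r 0.98), followed by the clock gene Cry2 (0.968), Bdnf (0.965), the calcium-responsive factor gene Nfatc2 (0.959) and Arc (0.957), a synaptic immediate early gene. Npas4 was most like Mir670hg (0.956), a microRNA host transcript, Trpt1 (0.955), Gucy2g (0.946), Zfp426 (0.942) and Impact (0.94). Nr4a2 followed Adcy8 (0.96), a calcium-stimulated adenylyl cyclase gene, and then Retreg1 (0.955), Wif1 (0.947), Hs3st5 (0.942) and Synj2 (0.937). Nr4a3 followed Hivep1 (0.944), a zinc finger factor gene, Zfpm1 (0.941), Iqsec1 (0.938), Slc6a17 (0.938) and H6pd (0.936).

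The 4 genes did not head each other's lists. Nr4a1 was number 18 for Npas4 (r 0.906), Nr4a3 number 122 (0.835) and Nr4a2 number 557 (0.7). The lowest correlation among the 4 was between Nr4a2 and Nr4a3 (0.543). Genes chosen by their likeness to a member share its pattern by that choice, so they were not tested for it.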

How the data were processed

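Poly(A) RNA of 16 samples of mouse primary cortical neurons was sequenced as stranded paired-end libraries. The deposited tables hold raw counts per gene symbol, made by the authors on mm10 with featureCounts 2.0.1 after FastQC, per the submitters' processing notes. The aligner, annotation and strand setting were not given in the sources used here. Columns were matched to samples by name, and 2 basal columns that share a name were not used, which left 14 libraries.

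From line 16420 the basal shNup153-1 columns were displaced by 1 to 4 lines against the symbols, so comparisons with that hairpin used lines up to 16399, a margin of 20, with totals from all lines. Counts were modelled with edgeR 4.0.16 (R 4.3.3): filterByExpr with a minimum count of 10, TMM scaling, quasi-likelihood F test, BH adjustment over all genes tested, FDR 0.05. The 3 basal groups were fitted together for comparisons with shNup153-1, basal shControl and shNup153-2 together for that comparison, silenced groups on their own, and 4 groups without shNup153-1 jointly over shared symbols for silenced against basal cultures and the interaction. SEs are the absolute log2 fold change divided by the square root of F. CPM use TMM-scaled totals over all 14 libraries, and log2 CPM for likeness a prior count of 2. Scripts were tested on simulated data.

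Alternatives were RLE factors, no scaling, no filter, DESeq2 1.42.0, limma-voom (limma 3.58.1), other sample sets, each library left out and replicate number as a block. In silenced cultures residuals of same-numbered libraries correlated across genes at 0.29, 0.57 and 0.62, so numbers were taken as pairs there, although no label ties equal numbers to a shared litter. Replicates are separate litters per the labels.

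The members, gene lists and tests were chosen with earlier results of these data known. Named beside the members were Nup153, up to 3 genes per list and comparison with the smallest p among those called (or the first if none was), and the 5 named genes per member with the highest Pearson r, leaving out predicted and clone-named genes. Genes named elsewhere in the text by this rule were also quoted in further comparisons. Promoter windows came from RefSeq.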

Additional observations from a re-analysis of the deposited data

Results flagged for a closer look

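The estimated effect of shNup153-2 on Nr4a2 had opposite directions in the 2 states, which are also the split of the count tables. At basal state both shNup153-2 libraries lay above all 4 shControl libraries (log2 fold change 0.93, SE 0.18), and in silenced cultures all 3 shNup153-2 libraries lay below all 3 shControl libraries (-0.69, SE 0.26). The test of the difference gave an interaction of -1.65 (SE 0.30), with a BH-adjusted p of 0.101 in edgeR and 0.000114 in DESeq2. The other 3 genes did not show such a split between the states, and the share of all genes with one was not counted.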

How the results depend on the processing

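The 4 genes and 7 comparisons gave 392 alternative values, of which 2 changed direction, 14 lost a call and 14 gained one. Both changes of direction came without shNup153-1 replicate 1, for Nr4a2 with shNup153-1 (-0.08, edgeR BH-adjusted p = 0.874, highest value with a library left out 0.33) and for Npas4 between the hairpins (0.22, edgeR BH-adjusted p = 0.85, lowest value with a library left out -1.43). The number of the 4 genes called with shNup153-1 was 3, between 1 and 3 with a library left out, and 0 with the replicate block, where no gene of 14529 was called. With shNup153-2 at basal state it was 4, between 0 and 4 with a library left out, and 3 with the block (Nr4a2, edgeR BH-adjusted p = 0.106). Between the hairpins it was 0, and 2 in DESeq2, 2 with all lines as deposited and 1 with only the groups compared. In silenced cultures it was 0, and 1 in DESeq2, 1 without a filter and 2 with the block. For silenced against basal shControl it was 1, and 2 in DESeq2 and at most 2 (lowest 1) with a library left out. For the interaction it was 0, and 3 in DESeq2. The cause of these moves was not tested, except that a library left out leaves 1 in a hairpin group of 2, which is then assumed to vary like the others. In the basal table same-number residual correlations were -0.58 and -0.65 for shNup153-1 and 0.22 and -0.03 for shNup153-2. The residuals of a hairpin group of 2 mirror each other, so these values cannot settle whether the numbers pair the libraries. No conclusion on the size of an effect was drawn from the block values of the basal table.

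Counts over all genes that moved by over 1.5 times with all libraries kept were, for shNup153-1 (1971), 3146 in DESeq2, 0 with the block, 7997 with all lines as deposited and 1203 with only the groups compared. For shNup153-2 at basal state (1880) DESeq2 gave 3624, and between the hairpins (651) DESeq2 gave 2114, the block 0 and all lines 6665. In silenced cultures (654) DESeq2 gave 1845 and the block 4161, and for the interaction (0) DESeq2 gave 285, voom 1, no filter 3, the block 2 and a joint fit of 5 groups 6. With a library left out, shNup153-1 gave 356 and 998 (without its replicates 1 and 2) and 1194 (without shControl replicate 4), and shNup153-2 at basal state 25 and 15 (without its replicates 1 and 2) and 650 (without shControl replicate 4). Between the hairpins the count was 4 without shNup153-1 replicate 1 and 0 without either shNup153-2 library, where 1868 and 2293 genes had an unadjusted p below 0.05 in edgeR. In silenced cultures it was 12 and 84 without shControl replicates 1 and 3 and 4, 372 and 99 without shNup153-2 replicates 1, 2 and 3. For silenced against basal shControl (2586) it was 1069 and 1211 without silenced replicates 1 and 3, and for silenced against basal shNup153-2 (4545) 891 and 841 without basal replicates 1 and 2 and 2064 and 2050 without silenced replicates 1 and 3. For the interaction it was at most 12, without basal shControl replicate 1. The lowest count of a member was 31, for Npas4 in silenced shNup153-2 replicate 2, so counting error was largest there.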
